A study of Drosophila melanogaster with 11 samples.

Results

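The genes described here are 10 axon guidance ligands and receptors of Drosophila melanogaster, of 17646 annotated genes whose names the deposited tables can hold. They are the ligands sli, NetA, NetB and Sema-1a and the receptors robo, lea, robo3, fra, PlexA and PlexB. They were chosen by name, and a peak was given to a gene that it intersects or, where it intersects none, to the genes that flank it. The study mapped genomic contacts of 2 proteins of the Enhancer of split complex, m5 and m8, and of Su(H) in embryos, with 11 libraries in 6 conditions. The labels name m5-DamID, m8-DamID, the same with the pros-Gal4 driver, and ChIP for m8 and Su(H) under pros-Gal4. The peak tables hold 1 library, named as m8 DamID without Gal4. The m8-DamID group has 2 libraries, and which of them is held is not given. The other conditions were not analysed here.

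The embryos of the m8-DamID group were at stages 9 to 16 and were kept at 26 °C. They carried Dam, a bacterial methyltransferase, fused to m8, in a UAS transgene without a Gal4 driver, so that low leaky expression was not restricted to the nervous system. The fusion methylates adenine in GATC near the places it contacts, and methylated fragments are cut out, amplified and sequenced. No library of unfused Dam is among the 11, so contact through m8 and general accessibility to Dam cannot be told apart. With 1 library no test between samples was possible and no replicate error can be given. Intervals are exact Poisson 95% intervals of the reads and cover counting error only, since amplified reads are not independent molecules.

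Growing axons are steered by secreted and membrane-bound cues. Slit, made by midline cells of the nerve cord, repels axons that carry Robo receptors, while Netrins attract axons that carry Frazzled. Semaphorins act through Plexins, mostly as repellents. E(spl) proteins are bHLH repressors switched on by Notch, and they restrain neural fate.

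Qseq, the peak finder of the first table, listed 3973 peaks, with a median of 40.5 RPM, the reads in a peak scaled to the size of the library. 1 RPM corresponded to 1.93 of the 1925156 reads behind the values. A second caller, MACS, listed 4209 peaks over 20 RPM, with a median of 54.0 RPM, and 1310 under 20 RPM. By Qseq, 4 of the 10 genes had a peak (sli, lea, fra and NetB), where 14.3% of all genes did. By MACS over 20 RPM, 6 of 10 had one, NetA and Sema-1a being added, where 18.6% of all genes did. In the table under 20 RPM, NetB and Sema-1a had 1 peak each, where 7.51% of all genes and 34.7% of those in the longest length class had one. The genes robo, robo3, PlexA and PlexB were in no gene column of any of the 3 tables.

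Long genes were named more often, and these genes are long. Their median length was 40.3 kb, against 1.69 kb for all genes. Of the 886 genes in the longest of 20 length classes, from 23.5 kb, 54.2% had a Qseq peak and 62.8% a MACS peak over 20 RPM, and 71.1% had a peak in at least 1 table. The class holds 7 of the 10 genes, of which 4 had a Qseq peak and 6 a MACS peak. The other 3 genes, robo, PlexA and PlexB, had neither. In the length class of robo and PlexB, 31.3% of genes had a Qseq peak and 43.8% a MACS peak over 20 RPM. In that of PlexA the shares were 45.6% and 54.7%. Read against the longest genes, the Qseq count of 4 of 7 is near the background.

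**Figure D1:**
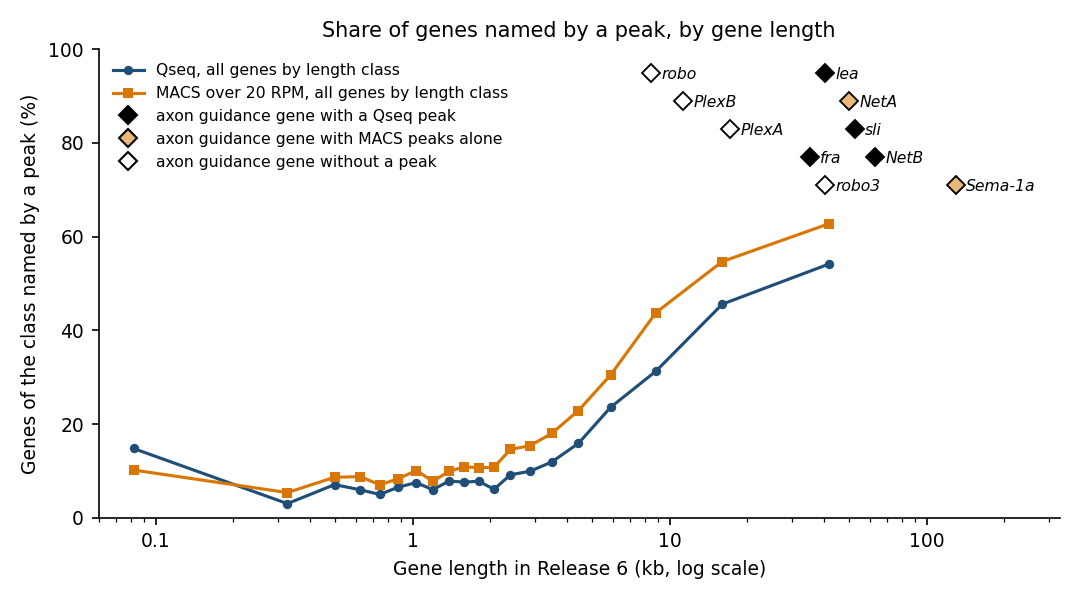
Share of genes named by a peak (%, vertical axis) against gene length (kb, log scale) in 20 length classes of all genes, for Qseq (circles) and MACS over 20 RPM (squares). Diamonds give the length of each axon guidance gene, and their height has no meaning. The share reached 54.2% and 62.8% in the longest class, which holds all 4 genes with a Qseq peak (black).

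The 12 Qseq peaks of the 4 genes had a median of 39.0 RPM, and 5 lay above the median of the table. They ran from 20.3 to 522 RPM, and 10 of them intersected the gene. A single peak in fra took 50.5% of their summed value. Of the 12 peaks, 7 overlapped a MACS peak, where 78.3% of all Qseq peaks did. Of the 17 MACS peaks over 20 RPM, 7 overlapped a Qseq peak, where 62.3% of all such peaks did.

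**Figure D2:**
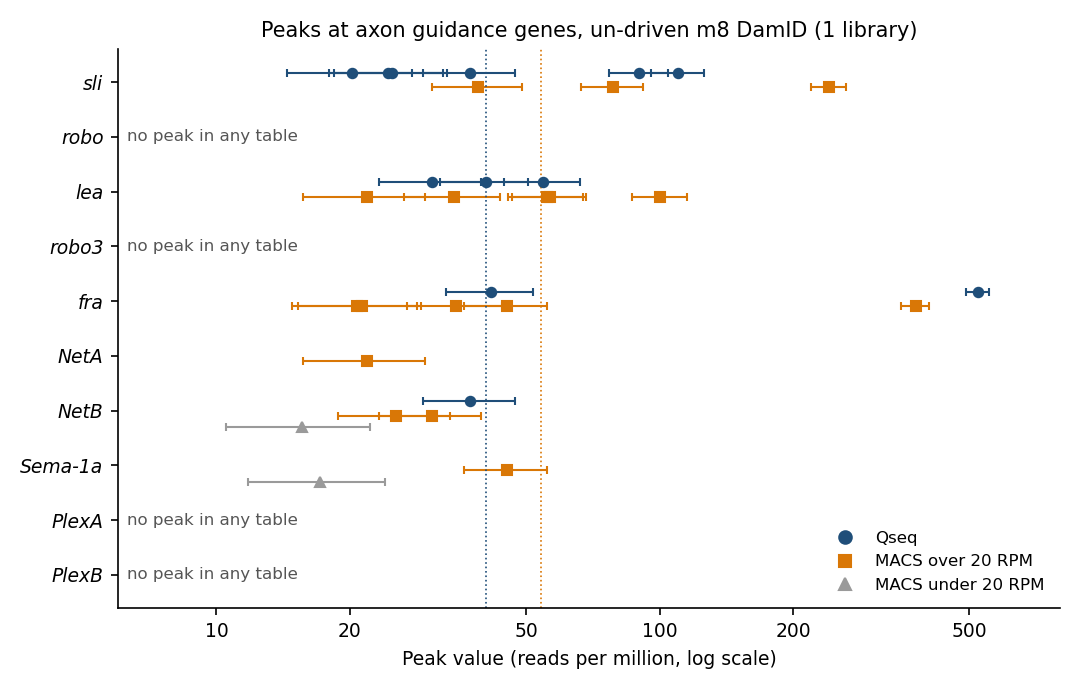
Value of each peak (RPM, log scale) at each of the 10 genes, with exact Poisson 95% intervals, for Qseq (circles), MACS over 20 RPM (squares) and MACS under 20 RPM (triangles). Dotted lines are the medians of the first 2 tables, 40.5 and 54.0 RPM. The peak in fra, at 522 RPM by Qseq and 378 RPM by MACS, stands to the right of all others, and 4 genes have no peak.

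The gene names needed a check before any locus was read. A note by the authors in the Qseq table marks names and positions as correct on chromosomes 2L, 3L and 4 and as not correct on 2R, 3R and X. On 2L, 27.4% of Qseq peak edges lay within 10 bp of a GATC of the Release 6 genome, where 5.34% of positions do. On 2R the share was 4.97% and on X 6.02%, so the numbering there is not that of Release 6. A single shift of the numbering was then sought, without the gene names, that puts most edges of the peaks within 3 Mb of a gene at GATC sites. Around sli it placed 28.8% of edges there, and 391 of 397 named genes then lay at their peaks. Around fra 443 of 449 did, and around NetB 257 of 257. With peaks within 1 Mb, sli and fra gave the same outcome, but NetA and NetB did not, with 0 of 79 and 0 of 76 names at their peaks. The wider window was taken after that outcome on X was seen. On 2L the same search returned no shift. The search was also run around Sema-5c, comm and Gyc76C on 3L, Pak on 3R, otk on 2R and beat-Ia on 2L, described further on, and around peaked neighbours of robo, PlexA and PlexB. In these windows 98.7% to 100% of names lay at their peaks. On chromosome 4 this rests on 18 peaks, and the shift placed 11 edges at GATC sites, against 10 for the next best. Without a shift, names lay at their Qseq peaks for 65.9% on 3L and 46.2% on chromosome 4. Names were used on the arms so checked, and annotation and sequence on 2L alone. Positions on 2R and X are in the numbering of the tables, which gives no build.

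Among the Netrin genes, NetB, which encodes one of the secreted Netrins, had 1 Qseq peak at chrX:14589802-14590835, of 37.4 RPM (29.3 to 47.1). MACS gave 25.5 RPM (18.8 to 33.7) there, and 30.6 RPM (23.3 to 39.5) between NetB and CG15890. The Qseq peak and the first MACS peak overlap and share reads, so their values are not independent, and no difference was tested. A further peak in NetB had 15.6 RPM in the table under 20 RPM. NetA, the other Netrin gene, had 1 MACS peak of 21.8 RPM (15.7 to 29.5) and none by Qseq. All peaks of both Netrin genes lay under the median of their table, apart from the one under 20 RPM.

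The receptor fra (frazzled, the attractive Netrin receptor) held the highest peak of the 10 genes. At chr2R:8424404-8426518 Qseq counted 1005 reads, or 522 RPM (490 to 555), rank 41 of 3973. Only 1.03% of Qseq peaks were as high. By reads per kb of peak it ranked 99. MACS gave 378 RPM (351 to 407), rank 62, over a span of 2321 bp that holds the whole Qseq peak of 2115 bp, yet with fewer reads, 728. Fewer MACS reads were also found for 41.3% of the 2392 Qseq peaks that lie inside 1 MACS peak. The cause was not tested. Between CG33632 and fra lay a Qseq peak of 41.6 RPM (33.0 to 51.7). Inside fra MACS added peaks of 45.2, 21.3 and 20.8 RPM, without a Qseq counterpart.

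Sema-1a, a transmembrane Semaphorin that also signals in reverse, is 130.0 kb long and had no Qseq peak. MACS gave 45.2 RPM (36.2 to 55.7) at chr2L:8610031-8611356, wholly inside an annotated intron. Over the transcripts whose introns hold this peak, the lowest intron number was 3 and the greatest intron length 66.7 kb. A second peak of 17.1 RPM (11.8 to 24.1) covered 358 bases of exon at the far end of the gene, none of them coding. Its receptor PlexA and the related PlexB lie on chromosome 4, where the tables hold 18 Qseq and 26 MACS peaks over 20 RPM in all. Neither was named.

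The Slit gene sli, the midline repellent, carried the most Qseq peaks, 6, all inside the gene. In the class of the longest genes, 6.43% had at least as many. By MACS it had 3, and 27.4% of the class had at least as many, while lea and fra had 5 each (10.2% of the class). Along the numbering the 6 Qseq peaks of sli had 89.9 RPM (77.0 to 104.3), 20.3, 37.4, 24.4, 24.9 and 110 RPM (95.8 to 126.0). By RPM the outer peaks, at chr2R:11776205-11777522 and chr2R:11805930-11807822, were higher than the 4 between them, with intervals that do not overlap theirs. RPM is not scaled to peak length, and the outer peaks are longer, 1318 and 1893 bp against 441 to 923 bp. Per kb of peak the outer ones held 131 and 112 reads, and those between held 56.8, 78.0, 107 and 96.0. The peak of 37.4 RPM also intersects CG33463, which lies inside sli. MACS listed 3 peaks, of 78.4, 39.0 and 241 RPM (220 to 264). The last, at chr2R:11802591-11805048, was the highest of sli but overlapped no Qseq peak, lying 794 bp and 882 bp from the nearest. The highest Qseq peak had no MACS counterpart. Of 290 MACS peaks of at least 200 RPM, 87 overlapped no Qseq peak, so that a mismatch of the first kind was not rare. The second kind was less common: of 638 Qseq peaks of at least 100 RPM, 66 overlapped no MACS peak of either table. The strongest place within sli thus differed between the callers.

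**Figure D3:**
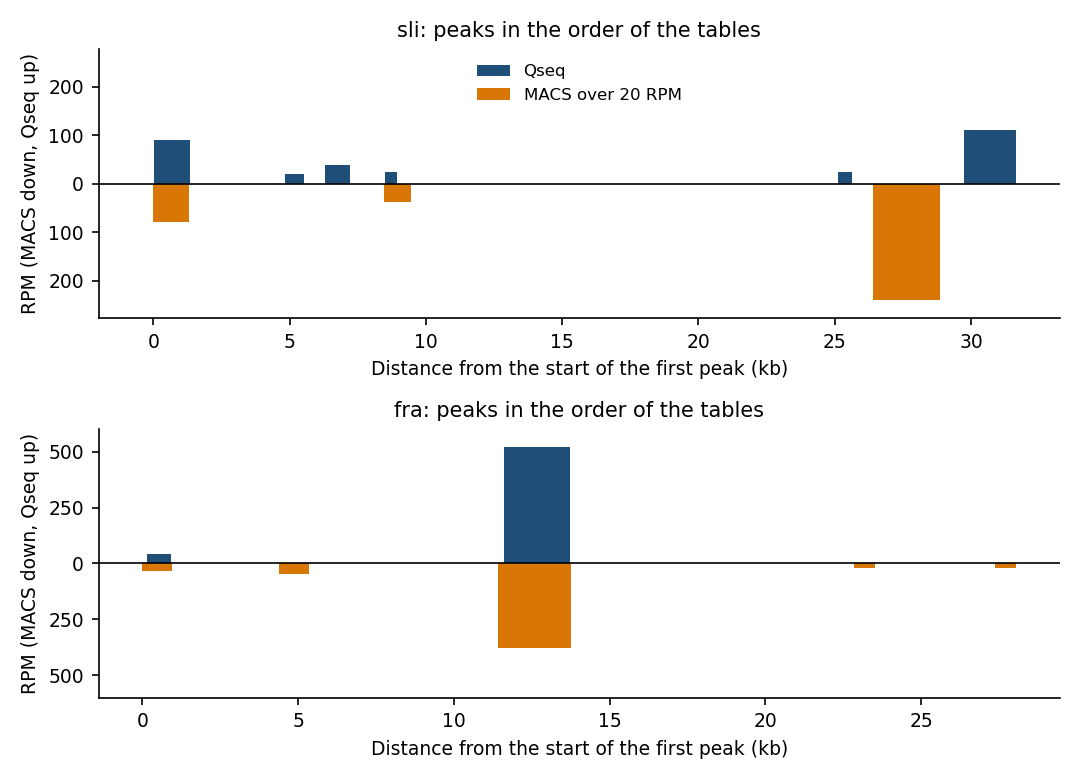
Peaks of sli (top) and fra (bottom) by distance from the start of the first peak (kb), with Qseq values up and MACS values over 20 RPM down (RPM). Bar width is peak length. In fra both callers place the highest peak together, while in sli the MACS peak of 241 RPM falls between Qseq peaks of 24.9 and 110 RPM.

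Of the Robo receptors, robo, the main Slit receptor, and robo3, which sets an intermediate lateral position of axons, had no peak. This says that no region passed the limits of the callers, not that signal was absent. For robo3 the nearest Qseq peaks lay 66.2 kb below, at CG5001, and 118 kb above, in lea. MACS peaks over 20 RPM lay nearer, 37.5 kb below and 93.9 kb above. GATC sites, which DamID needs, were sparser in robo3, at 1.42 per kb, than in lea, at 2.55 per kb, or on the arm, at 2.66 per kb. Sema-1a had 1.35 per kb. The part of site density in the result was not tested.

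The other Robo receptor, lea (robo2), sets the lateral position of axons far from the midline. It lies at chr2L:1380086-1420453 on the minus strand and had 3 Qseq peaks, all near its start. The peak at chr2L:1414387-1415284 had 54.5 RPM (44.6 to 66.0), and its centre lay 5.62 kb downstream of the start site, in intron 1 of 22.7 kb. The next, at chr2L:1418551-1419145, had 30.6 RPM (23.3 to 39.5) in the same intron, 1.60 kb downstream. The peak at chr2L:1423569-1424648, between lea and CG43401, had 40.5 RPM (32.0 to 50.6), 3.65 kb upstream. The first and second do not overlap in their intervals, and the upstream one overlaps both. MACS placed peaks of 55.6 and 34.3 RPM over the intron pair. It added 56.6 RPM (46.5 to 68.3) centred 1.12 kb upstream, 100 RPM (86.6 to 115) centred 6.32 kb upstream, and 21.8 RPM over 348 coding bases far downstream. As in sli, the highest MACS peak had no Qseq counterpart. Neither had the MACS peak of 56.6 RPM, and the upstream Qseq peak overlapped no MACS peak. Only the intron peaks were shared by the callers.

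**Figure D4:**
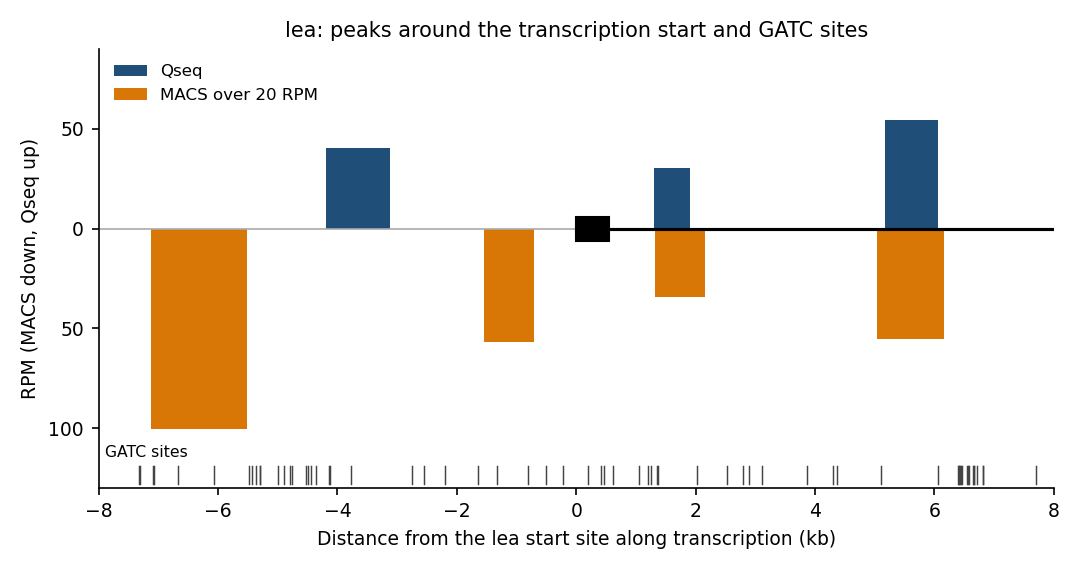
Peaks around the lea start by distance from the start site along transcription (kb), with Qseq values up and MACS values over 20 RPM down (RPM), the first exon (black box), the intron (line) and GATC sites (ticks). Peaks lie on both sides of the start, but only those in the intron overlap between the callers. No upstream peak of either caller has a partner, the MACS peak of 100 RPM at 6.32 kb upstream included. The MACS peak of 21.8 RPM lies beyond the window.

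The edges of the lea peaks can be read on the genome. The highest Qseq peak lies wholly in 1 GATC fragment of 970 bp, of which it covers 92.6%, and its lower edge falls 2 bp from a GATC. It holds no GATC itself, as was so for 21.3% of Qseq peaks on 2L. The 2 ends of that fragment are shown first, on the plus strand from Release 6, RefSeq, since they are the cut sites that frame the peak. GATC is in capitals, as is a CACNAG match (CTGGTG on this strand). The stretches after them hold the less common motif matches of the region, also in capitals.
Fragment start, chr2L:1414355-1414418: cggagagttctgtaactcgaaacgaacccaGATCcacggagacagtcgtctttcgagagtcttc
Fragment end, chr2L:1415312-1415387: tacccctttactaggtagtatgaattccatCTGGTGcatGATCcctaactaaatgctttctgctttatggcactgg
Intron peak by MACS, chr2L:1418394-1418559: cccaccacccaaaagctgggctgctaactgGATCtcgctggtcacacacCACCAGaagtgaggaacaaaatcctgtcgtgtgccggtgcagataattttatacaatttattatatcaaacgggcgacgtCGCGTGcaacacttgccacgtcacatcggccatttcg
Upstream peak by MACS, chr2L:1421748-1421836: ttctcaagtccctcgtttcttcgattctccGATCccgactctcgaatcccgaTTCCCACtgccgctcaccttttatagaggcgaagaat

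Motifs were searched on both strands. CACGTG is a known site of Hairy and E(spl) proteins. So is CACGCG. A further motif of that family is CACNAG, which includes the N-box. The general E-box, CANNTG, takes in the first of these. The core of the Su(H) site was searched as GTGGGAA. None of the lea and Sema-1a peaks of any table held CACGTG, which 10.4% of Qseq peaks and 16.3% of MACS peaks over 20 RPM on 2L held. CACGCG was in 1 of them, the intron peak of lea by MACS printed above (CGCGTG on the plus strand), and 14.1% of windows of that length on 2L hold it. Over all Qseq peaks on 2L the central 300 bases held CACGCG in 8.36%, against 5.19% of tiled windows. The other motifs had shares near or under theirs. CACGTG was in 2.74% against 3.54%, GTGGGAA in 2.74% against 3.93%, CACNAG in 31.8% against 31.1% and CANNTG in 81.0% against 77.9%. GTGGGAA was in 1 lea peak, the MACS peak centred 1.12 kb upstream printed last (TTCCCAC on the plus strand), where 10.6% of such windows hold it. CANNTG was in all 3 lea Qseq peaks and in 98.5%, 94.5% and 99.2% of windows of their lengths. CACNAG was in 1 of the 3, the peak upstream of the start, where 73.1% of windows of that length hold it. By MACS it was also in the lea peaks of 55.6, 34.3 and 100 RPM and the Sema-1a peak of 45.2 RPM. Of windows of those lengths, 74.8%, 64.7%, 85.3% and 79.9% hold it. These matches are letters in the sequence and not measured sites.

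Of 31 other genes of axon guidance, listed by role, 20 had a Qseq peak and 24 a MACS peak over 20 RPM. That is 64.5% and 77.4%, beside 14.3% and 18.6% of all genes and 54.2% and 62.8% of the longest length class. The listed genes had a median length of 24.3 kb, near the lower limit of that class. Of the 20 genes with a Qseq peak, 18 had one that intersects the gene. Neither caller named 7 of the 31. Over the 20 listed genes with a Qseq peak, the median of the highest values was 67.5 RPM, against 54.5 RPM over all genes named by a Qseq peak. These medians were not matched for gene length. Among Slit and Robo modulators 7 of 9 were named by Qseq, among Netrin partners 2 of 3, among Semaphorins and Plexin partners 4 of 7, and among other cues and receptors 7 of 12. The groups hold 3 to 12 genes each, and no difference of any from the 54.2% of the longest class was tested.

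The highest Qseq value was at Sema-5c, a transmembrane Semaphorin, with 205 RPM (185 to 226) between it and CG17154. It was followed by beat-Ia, which lets motor axons leave their bundle, with 133 RPM (118 to 151). Next came comm, which keeps Robo off the growth cone of crossing axons, with 129 RPM (114 to 146) between it and CG6244. Pak, a kinase that acts with the adaptor Dock, had 126 RPM, and otk, a Plexin partner, 124 RPM. Gyc76C, a receptor guanylyl cyclase, had 119 RPM in a peak that also intersects CG42637. The intervals of these last 5 overlap, while that of Sema-5c lies above them all. The fra peak of 522 RPM was above the highest Qseq peak of every gene of the list.

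**Figure D5:**
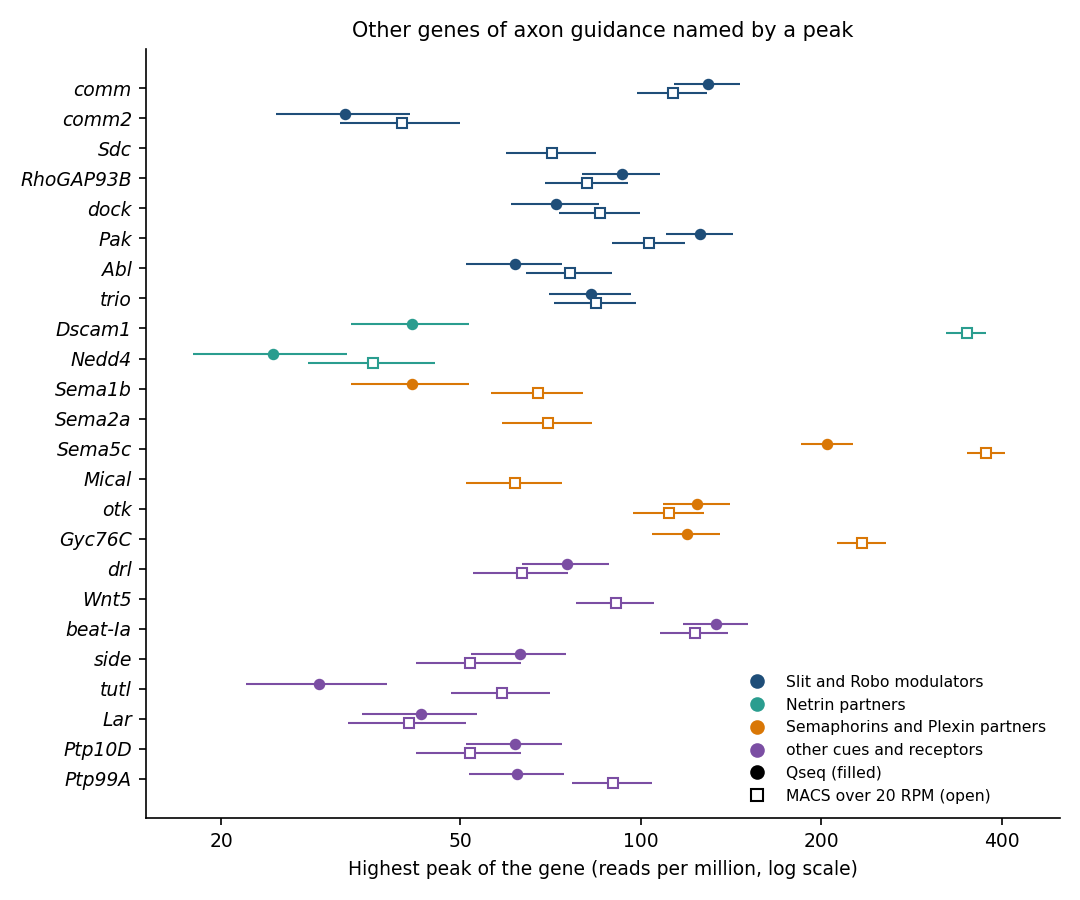
Highest peak of each other axon guidance gene that was named (RPM, log scale), with exact Poisson 95% intervals, for Qseq (filled circles) and MACS over 20 RPM (open squares), coloured by role. Sema5c is the highest by both, at 205 and 377 RPM, and Dscam1 differs most between the callers, at 41.6 and 350 RPM.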

How the data were processed

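DamID DNA from whole Drosophila embryos was sequenced as single reads. Assembly by the authors used SeqMan NGen of DNASTAR. They deposited RPM values, reads in a peak scaled to library size, for Qseq peaks (RPM over 20, p under 0.05, per the file headers) and for MACS peaks (settings and version of MACS not stated). The deposited raw read counts of the Qseq peaks gave the total of 1925156 reads, from which MACS reads were recovered, whole to within 0.00096 of a read. The labels name dm6, which the numbering matched on 2L, in part on 3L and 4, and hardly or not on 2R, 3R and X. No unmatched column was used. Names in the tables, 4443, were matched to RefSeq Release 6 symbols or synonyms, 4274 of them. Names holding a bracket are cut short in the tables, and those genes were left out of the background.

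Each peak was given to the gene it intersects or, failing that, to those flanking it. The text names each of the 10 genes, every gene on their peak rows and the 6 listed pathway genes of highest RPM. Genes that share the highest Qseq peak of those 6 are named too. Robo3's neighbour CG5001 and Dscam1 were named after their values were seen, and the length classes, the check of names and the shares of peaks of at least 200 RPM were also added after seeing the data. The genes and lists were chosen with earlier results of these data known. Overlap means at least 1 shared base. Alternatives were the MACS tables, stricter naming, at least 40 RPM, joining of peaks under 1000 bp apart, reads per kb and the central 300 bases. Intervals, joining and motif search were tested on simulated data. The work used scipy 1.17.1 for intervals and the shift search, matplotlib 3.10.9 for figures, and pandas 2.3.3 and numpy 2.4.6 under Python 3.11.15.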

Additional observations from a re-analysis of the deposited data

How the results depend on the processing

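No paired analysis was possible because a single library stands behind all 3 tables, and for the same reason no replicate could be left out. The number of the 10 genes with a peak was 4 by Qseq, 6 by MACS over 20 RPM or by any table, 4 where the gene had to be intersected or could stand in any gene column, and 3 with at least 40 RPM. The number of peaks, 12, became 6 with at least 40 RPM, 10 with intersected genes alone, 11 after joining, and 17 by MACS. By MACS the highest value became 241.0 RPM for sli (110.1 by Qseq), 100.3 RPM for lea (54.5) and 378.2 RPM for fra (522.0). Each lay outside the counting interval of the highest Qseq value, while that of NetB, 30.6 RPM, stayed inside. Only in fra were both values at the same place, since the highest MACS peaks of sli, lea and NetB overlapped no Qseq peak. At the highest Qseq peak of lea MACS had 55.6 RPM, inside the Qseq interval. At that of NetB it had 25.5 RPM, under the interval of 29.3 to 47.1. Such an interval covers the counting error of 1 value only. It measures no difference between places, nor between callers that share reads. By reads per kb the rank of the highest peak went from 548 to 2016 for sli, from 41 to 99 for fra and from 2154 to 3623 for NetB. In the central 300 bases of the 3 Qseq peaks of lea, GATC was found in 1 in place of 2, and CACNAG in 0 in place of 1. The causes of these differences were not tested. Peaks under 20 RPM rest on fewer than 40 reads.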
